A study of Rattus norvegicus with 28 samples.

Results

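INS-1 cells are an insulin-secreting line derived from a rat tumour and serve as a model of the beta cell. They were exposed to forskolin (FSK, 10 µM) for 16 h and compared with control (CON) cells. Both groups carried wild type (WT) Med14. The comparison used 4 of the 28 RNA-seq libraries of the series, namely WT CON replicates 1 and 2 and WT 16 h FSK replicates 1 and 2, and 1 transcript was taken for each gene symbol. All cells were washed and placed in medium without serum before treatment. The same series held WT cells after FSK for 1 and 8 h, WT cells after the GLP-1 receptor agonist exendin-4 (Ex-4, 10 nM), and Med14 S983A cells, in which CRISPR editing replaced a serine of the Mediator subunit Med14 with alanine and lines were grown from single sorted cells. Of 17455 gene symbols, 10275 had a mean of at least 1 TPM (a level divided by transcript length and then scaled to a fixed total per library) over the 28 libraries and were tested. The methods call the replicates biological, but neither they nor the labels say whether the 2 replicates of a group were separate cultures. The p-values rest on the spread between replicate libraries, estimated over all 28 libraries of the series. That spread may be in part technical.

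FSK activates adenylyl cyclase directly and so raises cyclic AMP without a receptor. Cyclic AMP activates protein kinase A, which phosphorylates the transcription factor CREB, and CREB bound to cAMP response elements turns on immediate early genes and genes that dampen the signal. In beta cells the same second messenger is raised by gut hormones and potentiates insulin secretion, and long exposure reaches metabolic, secretory and stress genes beyond the first wave.

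The libraries held between 42551133 and 52488819 fragments, and the log2 levels of the 2 replicates correlated at 0.999 in each group. All 16 measured beta cell markers were at 1 TPM or more in both groups. Of 18 acinar markers, 10 were at 0 in all 4 libraries, and the summed level of the list was 13.1 to 14.9 TPM in CON and 49.1 to 56.3 TPM after FSK. Marker genes are named here after their values were seen. The leukocyte list summed to at most 1.81 TPM, with Ptprc and Itgam at 0. Other markers were expressed. The alpha cell hormone gene Gcg, which INS-1 cells expressed at 165 and 169 TPM in CON, was at 761 and 809 TPM after FSK, while the alpha cell genes Irx2 and Pou3f4 were at 0 throughout. Gc, a vitamin D-binding protein gene on the same list, was at 1144 and 1122 TPM in CON and 534 and 536 TPM after FSK, and Epcam of the duct list was at 292 and 293 TPM and then 431 and 429 TPM. The whole alpha cell list summed to 1492 to 1507 TPM in CON and 1366 to 1415 TPM after FSK. Fewer cells of a kind and less RNA per cell cannot be told apart in these bulk samples.

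Under a cutoff of more than 1.5-fold and an adjusted p below 0.05 (limma on log2(TPM + 1)), 1062 genes (10.3% of those tested) were called higher and 2478 (24.1%) lower after 16 h FSK. The share of all TPM held by the genes called higher was 12.1% and 11.97% in the CON libraries and 24.2% and 24.1% in the FSK libraries. The genes called lower held 18.5% and 18.2% in CON and 8.89% and 8.92% after FSK. TPM is a share of a library, and the median gene moved by -0.20 on the log2 scale. The direction of change in the median depended on scaling: it was 0.04 with each library centred on its median log2 level and 0.16 with the ERCC spike-in RNAs, added in proportion to the mass of total RNA. All 1062 genes called higher in TPM were also called higher under both other scalings, whereas 1155 of the 2478 called lower (11.2% of genes tested) were lower under all 3. Both other scalings shift genes upward, so a rise could hardly lose its call and a fall could. This contrast therefore does not show that rises are firmer than falls. Below, a gene that lost its call under one of these scalings is named as such.

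**Figure D1:**
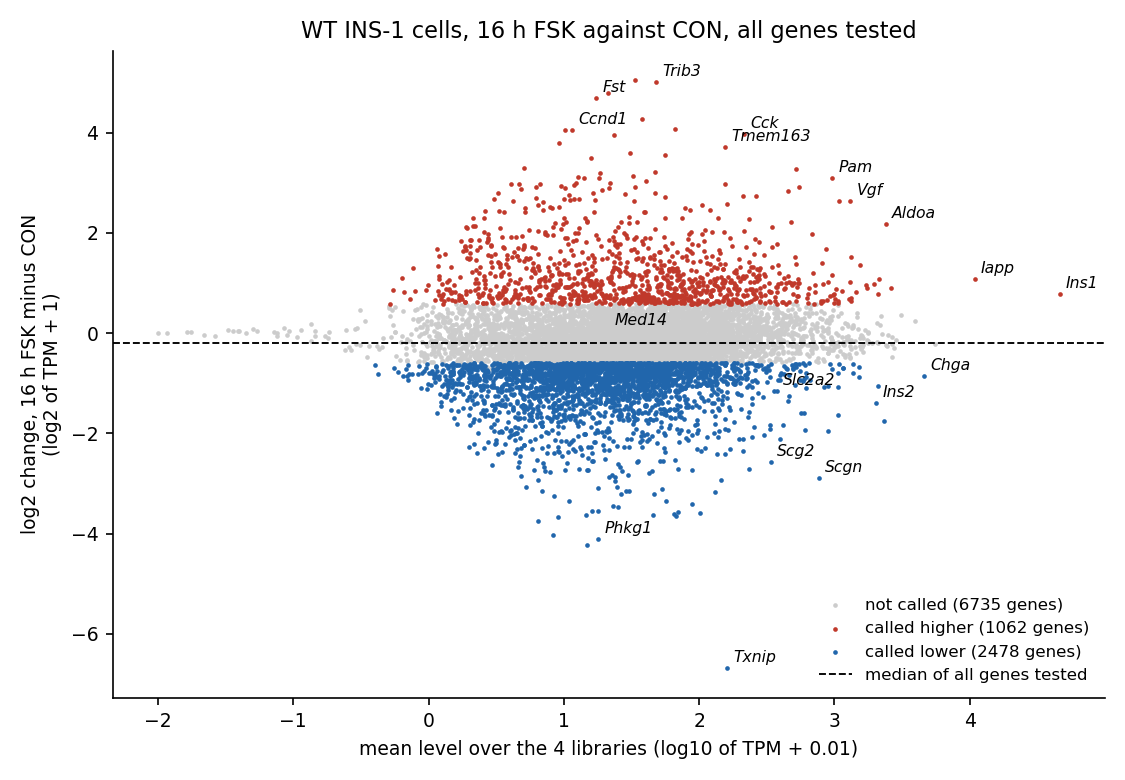
Log2 change in WT cells after 16 h FSK (log2 of TPM + 1, y axis) against the mean level over the 4 libraries (x axis, log10), 1 point per gene, with 1062 genes called higher in red, 2478 called lower in blue and the rest in grey. The dashed line is the median of all genes tested, at -0.20, and Txnip is the lowest point at -6.69.

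**Figure D2:**
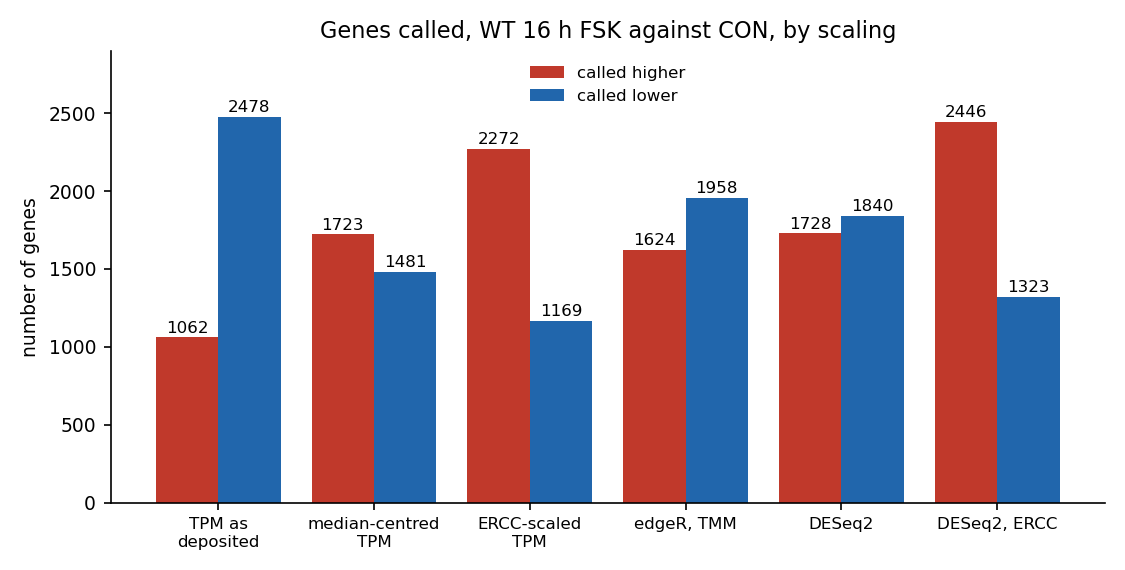
Number of genes called higher (red) and lower (blue) in WT 16 h FSK against CON under 6 combinations of scaling and test (x axis). The balance moves from 1062 higher and 2478 lower in TPM to 2272 and 1169 with ERCC-scaled TPM.

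The full cAMP response element TGACGTCA, a palindrome that reads the same on both strands, is shown here in promoters that hold it because CREB is the textbook effector of FSK. Among the 15 genes of largest rise (mean of at least 10 TPM), 8 had a promoter window and 1, Cartpt, held the element. Among 27457 RefSeq promoter windows of 300 bases (250 before and 50 after the gene start), 525 (1.91%) held these letters, as did 272 (3.40%) of the 7997 windows of tested genes. The windows below are the 250 bases before the start on build GRCr8, 5′ to 3′ on the gene's strand, with the element in capitals, for the 5 genes of largest rise that held it with a mean of at least 10 TPM; they were chosen for holding it and after their values were seen.
Cartpt, chr2:32991236-32991485, minus strand: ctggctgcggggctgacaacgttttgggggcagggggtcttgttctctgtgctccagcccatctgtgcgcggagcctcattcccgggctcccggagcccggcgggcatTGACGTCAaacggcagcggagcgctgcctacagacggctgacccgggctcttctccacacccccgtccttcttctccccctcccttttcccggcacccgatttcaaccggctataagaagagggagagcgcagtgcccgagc
Ppargc1a, chr14:63634058-63634307, plus strand: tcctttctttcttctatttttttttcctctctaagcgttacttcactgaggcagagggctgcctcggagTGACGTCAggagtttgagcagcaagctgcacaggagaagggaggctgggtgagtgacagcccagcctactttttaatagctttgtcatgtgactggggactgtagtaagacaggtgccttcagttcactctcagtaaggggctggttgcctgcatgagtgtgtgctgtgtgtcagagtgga
Maff, chr7:112792537-112792786, plus strand: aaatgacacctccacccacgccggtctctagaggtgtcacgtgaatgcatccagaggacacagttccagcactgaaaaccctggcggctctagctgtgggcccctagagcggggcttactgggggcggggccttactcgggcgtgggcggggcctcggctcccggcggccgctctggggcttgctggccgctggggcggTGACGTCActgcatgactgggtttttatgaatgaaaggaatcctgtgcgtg
Epha2, chr5:158888379-158888628, plus strand: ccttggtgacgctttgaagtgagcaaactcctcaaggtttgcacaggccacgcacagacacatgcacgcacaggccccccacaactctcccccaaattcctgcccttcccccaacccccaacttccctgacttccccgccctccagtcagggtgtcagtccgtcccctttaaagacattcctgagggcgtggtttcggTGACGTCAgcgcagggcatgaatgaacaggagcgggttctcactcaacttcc
Vgf, chr12:25277021-25277270, minus strand: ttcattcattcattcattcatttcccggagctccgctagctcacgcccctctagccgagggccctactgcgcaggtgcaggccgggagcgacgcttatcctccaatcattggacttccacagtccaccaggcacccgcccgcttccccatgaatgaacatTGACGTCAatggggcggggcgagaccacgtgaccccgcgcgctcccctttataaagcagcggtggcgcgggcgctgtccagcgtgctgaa

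The element began 142 bases before the start of Cartpt, 181 before Ppargc1a, 51 before Maff, 52 before Epha2 and 90 before Vgf. Cartpt, a neuropeptide gene, was at 7.71 and 9.07 TPM in CON and 90.9 and 81.1 TPM after FSK. The transcriptional coactivator gene Ppargc1a was at 3.29 and 2.46 TPM in CON and 33.1 and 35.5 TPM after FSK. Maff, which encodes a small Maf transcription factor, went from 2.91 and 3.93 TPM to 29.4 and 29.8 TPM. These genes were picked for a large rise, so the wide gap between their CON and FSK libraries follows from the choice. The ephrin receptor gene Epha2 was at 2.02 and 2.11 TPM in CON and 19.1 and 20.2 TPM after FSK. Vgf, which encodes a granule protein that is cut into peptides, was at 367 and 360 TPM in CON and 2242 and 2282 TPM after FSK.

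Ins1 and Hmgcs1 are shown as genes that rose without the full element in this window. In Ins1 the window held the first 5 letters, TGACG (capitals), which began 185 bases before the start, and the window of the cholesterol synthesis gene Hmgcs1 held neither these letters nor their reverse complement CGTCA.
Ins1, chr1:261185869-261186118, plus strand: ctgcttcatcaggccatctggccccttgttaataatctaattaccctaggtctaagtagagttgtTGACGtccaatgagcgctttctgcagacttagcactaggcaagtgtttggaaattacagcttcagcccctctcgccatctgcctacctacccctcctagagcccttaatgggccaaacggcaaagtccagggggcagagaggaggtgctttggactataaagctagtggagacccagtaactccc
Hmgcs1, chr2:53382054-53382303, plus strand: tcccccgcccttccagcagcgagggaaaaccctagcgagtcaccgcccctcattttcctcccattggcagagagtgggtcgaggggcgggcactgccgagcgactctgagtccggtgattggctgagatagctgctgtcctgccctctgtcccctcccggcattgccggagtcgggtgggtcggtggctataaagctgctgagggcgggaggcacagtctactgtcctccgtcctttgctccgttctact

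TGACG or CGTCA occurred in 6030 of the 27457 windows (21.96%) and in 2696 (33.7%) of the 7997 windows of tested genes. A match is a description of the letters and was not tested as a binding site.

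Txnip, which encodes a thioredoxin-binding protein that restrains glucose uptake and is itself turned on by glucose through the factor ChREBP, showed the largest fall of all tested genes. Its level was 329 and 312 TPM in CON and 1.92 and 2.33 TPM after 16 h FSK, so that 0.663% of the CON level was left (log2 change -6.69 ± 0.08 SE, limma adjusted p = 4.55e-27; rn6 chr2:198683168-198686968). Both FSK libraries lay far below both CON libraries. Arrdc4, a second arrestin-domain gene under the same control, fell from 197 and 180 TPM to 13.9 and 15.8 TPM (log2 -3.58 ± 0.07). Mlxipl, the gene for ChREBP itself, fell from 293 and 272 TPM to 54.6 and 58.3 TPM (log2 -2.30 ± 0.08). The liver-type pyruvate kinase gene Pklr, a classical ChREBP target, fell from 225 and 220 TPM to 51.4 and 52.3 TPM (log2 -2.08 ± 0.04). Of the 11 tested genes of this list, 6 fell and 1 rose, namely the fructokinase gene Khk, and 5 of the 6 falls held under all 3 scalings. The median of the list was -0.67 against -0.20 for all genes.

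With the ranking limited to genes averaging 10 TPM or more across all libraries, the 15 largest rises were Plat, Trib3, Gprc5a, Fst, Chac1, Ifi27l2b, Ccnd1, Cck, Fosl2, Sv2c, Tmem163, Atf3, Tac1, Mest and Cartpt, with log2 changes from 5.05 down to 3.21. Plat encodes tissue plasminogen activator, a secreted protease, and was at 0.955 and 1.08 TPM in CON and 63.4 and 68.1 TPM after FSK (log2 5.05 ± 0.09, limma adjusted p = 3.04e-24; rn6 chr16:74098268-74122858). Trib3, a pseudokinase gene of the stress response, was at 1.60 and 2.30 TPM in CON and 90.9 and 95.9 TPM after FSK (log2 5.01 ± 0.09). Fst, the gene for the activin antagonist follistatin, was at 0.289 and 0.458 TPM in CON and 33.9 and 35.0 TPM after FSK. Each of these genes was low in CON and at a moderate level in both FSK libraries. The imprinted gene Mest reached a higher level, from 97.0 and 94.9 TPM to 948 and 937 TPM. The synaptic vesicle zinc transporter gene Tmem163 rose from 20.6 and 21.6 TPM to 283 and 294 TPM.

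Under the same limit on the mean, the 15 largest falls were Txnip, Phkg1, Slc8a2, Efnb3, Pgm5, Nrgn, Arrdc4, Ffar3, Dmrta1, Crp, Dpysl3, Maob, Tmem215, Abca1 and Cabp7. After Txnip they ran from -4.11 to -3.21. Phkg1, the catalytic subunit gene of phosphorylase kinase in muscle, fell from 35.0 and 34.5 TPM to 0.917 and 1.25 TPM. Slc8a2, a sodium-calcium exchanger gene, fell from 135 and 117 TPM to 9.29 and 8.78 TPM. The monoamine oxidase gene Maob fell from 161 and 163 TPM to 13.5 and 15.1 TPM.

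**Figure D3:**
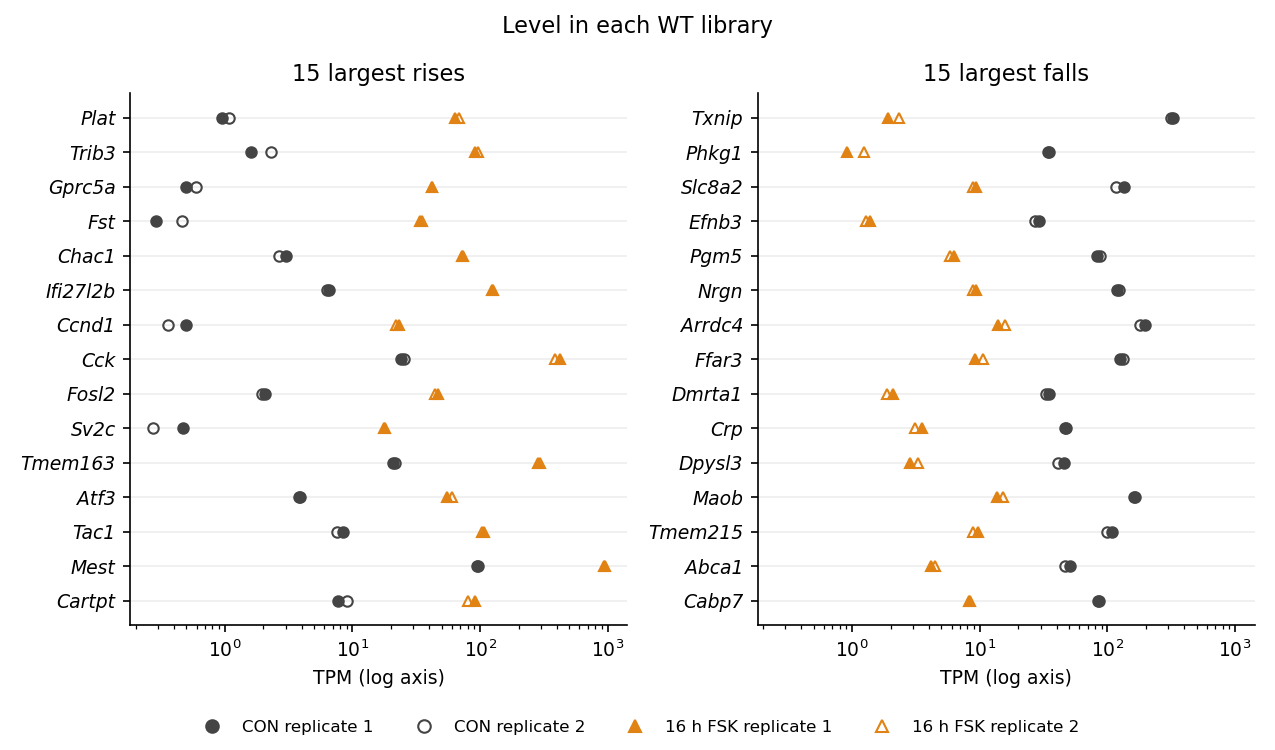
Level in TPM (log axis) of the 15 genes with the largest rise (left) and the 15 with the largest fall (right), among genes averaging 10 TPM or more, in each of the 4 WT libraries, with CON as grey circles and 16 h FSK as orange triangles (filled, replicate 1; open, replicate 2). The genes were picked for their large changes, so that no gene has overlapping groups follows from the choice. Txnip falls from 329 and 312 TPM to 1.92 and 2.33 TPM.

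A further view was given by genes that crossed from under 1 TPM in both libraries of one group to at least 5 TPM in both of the other. There were 19 such genes that appeared with FSK and 27 that were lost. Among those that appeared were receptor genes, such as Oxtr, the oxytocin receptor gene, at 0.898 and 0.827 TPM in CON and 9.47 and 9.48 TPM after FSK, and Rxfp3, a relaxin family receptor gene, at 0.148 and 0.145 TPM and then 8.51 and 7.57 TPM. Slc7a11, the cystine transporter gene, went from 0.128 and 0.133 TPM to 9.36 and 10.7 TPM. Inhbe, an inhibin subunit gene, was listed at 0 in 1 CON library and at 0.115 TPM in the other, against 5.70 and 7.12 TPM after FSK. Among those lost were Ubd, a ubiquitin-like modifier gene, at 12.4 and 13.4 TPM in CON and 0.026 and 0.049 TPM after FSK, and the cytochrome P450 gene Cyp4f1, at 16.6 and 16.2 TPM and then 0.034 and 0.120 TPM. Selenop, the selenoprotein P gene, fell from 29.0 and 29.5 TPM to 0.481 and 0.776 TPM. Insrr, a receptor tyrosine kinase gene of the insulin receptor family, fell from 5.90 and 5.66 TPM to 0.119 and 0.073 TPM. The vitamin D receptor gene Vdr and the retinaldehyde dehydrogenase gene Aldh1a1 were also in this group. All 46 of these genes were called, because the rule itself requires a large difference.

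The 2 rat insulin genes moved in opposite directions. Ins1 was at 34501 and 33716 TPM in CON and 59777 and 56967 TPM after FSK, a rise to 171% (log2 0.77 ± 0.05, limma adjusted p = 1.96e-12; rn6 chr1:272799784-272800349). Ins2 was at 2885 and 2991 TPM in CON and 1154 and 1080 TPM after FSK, a fall to 38.03% (log2 -1.39 ± 0.06, adjusted p = 2.66e-17; rn6 chr1:215856967-215858034). Their coding sequences are closely similar, so reads of one may have been assigned to the other. Ins1 alone took 3.45% and 3.37% of all TPM in CON and 5.98% and 5.70% after FSK. In absolute level the largest gains, named after their values were seen, were those of Ins1, the amylin gene Iapp, Aldoa, Vgf and Gapdh. Iapp rose from 7007 and 6973 TPM to 14797 and 14762 TPM. The largest losses of level were those of the granule protein gene Chga, the neuronatin gene Nnat, Ins2, the keratin gene Krt8 and the calcium sensor gene Scgn. Chga went from 5978 and 5872 TPM to 3316 and 3233 TPM and lost its call with ERCC scaling. Nnat, an imprinted gene of the ER membrane, fell from 3590 and 3565 TPM to 1123 and 1015 TPM.

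Other granule genes also moved both ways. Of 21 tested genes of insulin, granule proteins and prohormone processing, 9 rose and 9 fell, 5 of the falls under all 3 scalings, and the median was 0.20. Pam, which amidates peptide hormones, rose from 207 and 195 TPM to 1709 and 1748 TPM (log2 3.10 ± 0.05, limma adjusted p = 6.24e-26). Ptprn, a granule membrane protein gene, rose from 274 and 259 TPM to 770 and 754 TPM. Secretogranin II, Scg2, fell from 581 and 575 TPM to 96.7 and 95.5 TPM (log2 -2.58 ± 0.04). The ER oxidase gene Ero1b, which serves disulfide formation in proinsulin, fell from 69.6 and 64.0 TPM to 19.4 and 20.1 TPM. Of the 13 tested neuropeptide and gut hormone genes, 9 rose and 2 fell, with a median of 1.31. Cholecystokinin, Cck, rose from 24.1 and 25.5 TPM to 421 and 387 TPM. Neuromedin U, Nmu, went from 0.123 and 0.452 TPM to 19.8 and 20.7 TPM. The tachykinin gene Tac1 rose from 8.40 and 7.62 TPM to 107 and 103 TPM. The 2 falls were in Scgn, from 1320 and 1385 TPM to 188 and 173 TPM, and the secretin gene Sct, from 19.99 and 22.1 TPM to 11.9 and 10.8 TPM. Scgn was on this list but is the calcium sensor gene named above, not a hormone gene, and Sct was not called with ERCC scaling.

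Genes of beta cell identity and glucose sensing were mostly lower. Of 24 tested beta cell transcription factors, 13 fell and 3 rose, 8 of the falls under all 3 scalings, and the median was -0.67. Rfx6 fell from 143 and 144 TPM to 34.2 and 35.0 TPM, and Neurod1 from 234 and 214 TPM to 56.3 and 57.2 TPM. Pdx1, the factor that defines the beta cell lineage, fell from 292 and 291 TPM to 159 and 150 TPM, a call that was lost with ERCC scaling. Nkx6-1 was at 51.4 and 53.0 TPM in CON and 35.1 and 35.8 TPM after FSK and was not called (log2 -0.54 ± 0.07). The 3 that rose were Tcf7l2 (1.04 and 0.948 TPM to 4.36 and 5.204 TPM), Bhlha15, a factor of secretory cells (16.3 and 14.8 TPM to 43.4 and 43.0 TPM), and Foxa1 (3.33 and 2.76 TPM to 8.28 and 8.97 TPM).

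Of 36 tested genes for glucose sensing and ion channels, 23 fell and 5 rose, 14 of the falls under all 3 scalings, and the list had a median of -0.81. The glucose transporter genes went opposite ways. Slc2a2, the transporter gene of rodent beta cells, fell from 534 and 500 TPM to 234 and 228 TPM (log2 -1.16 ± 0.05, limma adjusted p = 1.05e-16). Slc2a1, the widely expressed transporter gene, rose from 33.6 and 33.3 TPM to 132 and 139 TPM (log2 1.98 ± 0.07, adjusted p = 3.81e-18). The fatty acid receptor gene Ffar1 fell from 124 and 104 TPM to 20.6 and 17.3 TPM. The calcium channel gene Cacna1a fell from 47.8 and 46.2 TPM to 8.75 and 9.13 TPM, and the potassium channel gene Kcnb2 from 9.37 and 8.56 TPM to 1.12 and 1.14 TPM. Kcnj11 and Abcc8, the subunit genes of the KATP channel, were named after their values were seen. Kcnj11 went from 233 and 219 TPM to 122 and 119 TPM, and Abcc8 from 249 and 227 TPM to 125 TPM in both FSK libraries. Neither call was kept with ERCC scaling. The potassium channel gene Kcnq1 rose from 4.52 and 3.77 TPM to 9.28 and 10.7 TPM. Among 37 tested genes of granule exocytosis, 8 rose and 9 fell (24.3%, against 24.1% of all genes tested), with a median of -0.16. Syt4, a synaptotagmin gene, rose from 35.6 and 34.1 TPM to 129 and 134 TPM, and Snap25, a SNARE gene, from 157 and 153 TPM to 372 and 385 TPM. Rab3b, a granule GTPase gene, fell from 126 and 118 TPM to 17.9 and 17.7 TPM, and its partner gene Rph3al from 209 and 204 TPM to 52.8 and 49.7 TPM.

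The first wave of cAMP genes was still raised at 16 h. Of 53 tested cAMP feedback and immediate early genes, 36 rose and 7 fell, with a median of 1.00 against -0.20 for all genes. Crem, which also gives rise to the repressor ICER, was at 11.7 and 10.6 TPM in CON and 86.4 and 80.4 TPM after 16 h FSK (log2 2.80 ± 0.08, limma adjusted p = 3.27e-20). Fos was at 2.16 and 1.91 TPM in CON and 16.7 and 16.2 TPM after FSK (log2 2.52 ± 0.10). The AP-1 gene Fosl2 rose from 2.05 and 1.95 TPM to 46.7 and 44.0 TPM. Atf3 rose from 3.81 and 3.86 TPM to 54.9 and 59.8 TPM. The G protein regulator gene Rgs16 fell from 122 and 117 TPM to 36.7 and 35.1 TPM, and the receptor kinase gene Grk3 from 42.3 and 37.0 TPM to 15.7 and 14.8 TPM. Upstream of these genes, the 29 tested genes for receptors, cyclases, protein kinase A and CREB had a median of -0.52, with 13 called lower and 2 higher. 7 of the falls held under all 3 scalings. Vipr1, a receptor gene for vasoactive intestinal peptide, fell from 18.4 and 16.9 TPM to 5.92 and 5.25 TPM. The cyclase gene Adcy6 fell from 87.6 and 84.1 TPM to 32.8 and 32.6 TPM. Prkacb, a catalytic subunit gene of protein kinase A, fell from 108 and 94.7 TPM to 38.8 and 41.0 TPM. The GLP-1 receptor gene Glp1r, named after its values were seen, was at 95.4 and 89.8 TPM in CON and 82.8 and 84.1 TPM after FSK and was not called.

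All 39 tested ATF4 targets and tRNA synthetases had a log2 change above 0, from 0.11 to 5.01, and 31 were called higher and 0 lower, with a median of 1.25. ATF4 is the factor made when the integrated stress response slows translation, and its targets supply amino acids and charged tRNAs. Trib3, described above, led the list. Chac1, a glutathione-degrading enzyme gene, rose from 3.04 and 2.65 TPM to 72.0 and 73.7 TPM. Ddit3, which encodes CHOP, rose from 45.0 and 45.9 TPM to 269 and 280 TPM (log2 2.57 ± 0.06, limma adjusted p = 5.26e-22). Of 66 tested genes of ER folding, the unfolded protein response and ER export, 47 rose and 1 fell, with a median of 0.88. Kdelr3, a receptor gene that returns proteins to the ER, rose from 8.34 and 7.85 TPM to 70.0 and 76.6 TPM. The co-chaperone gene Dnajc3 rose from 45.1 and 42.4 TPM to 152 and 150 TPM, and Dnajb9 from 26.4 and 24 TPM to 83.8 and 89.2 TPM. The chaperone gene Hspa5 rose from 1051 and 1041 TPM to 1828 and 1885 TPM. The 1 fall was in Ero1b. Of 39 tested antioxidant and heat shock genes, 5 rose (12.8%, near the 10.3% of all genes tested) and 3 fell (7.69%, against 24.1%). Hmox1 (heme oxygenase) rose from 18.1 and 16.8 TPM to 75.6 and 78.6 TPM, and Srxn1 (sulfiredoxin) from 41.3 and 38.05 TPM to 138 TPM in both. Hspa12a fell from 39.4 and 37.8 TPM to 4.12 and 4.77 TPM. Of 34 tested proteasome subunits, 1 was called higher, the immunoproteasome subunit gene Psmb8, and 0 lower in TPM, while 14 were called higher with ERCC scaling.

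**Figure D4:**
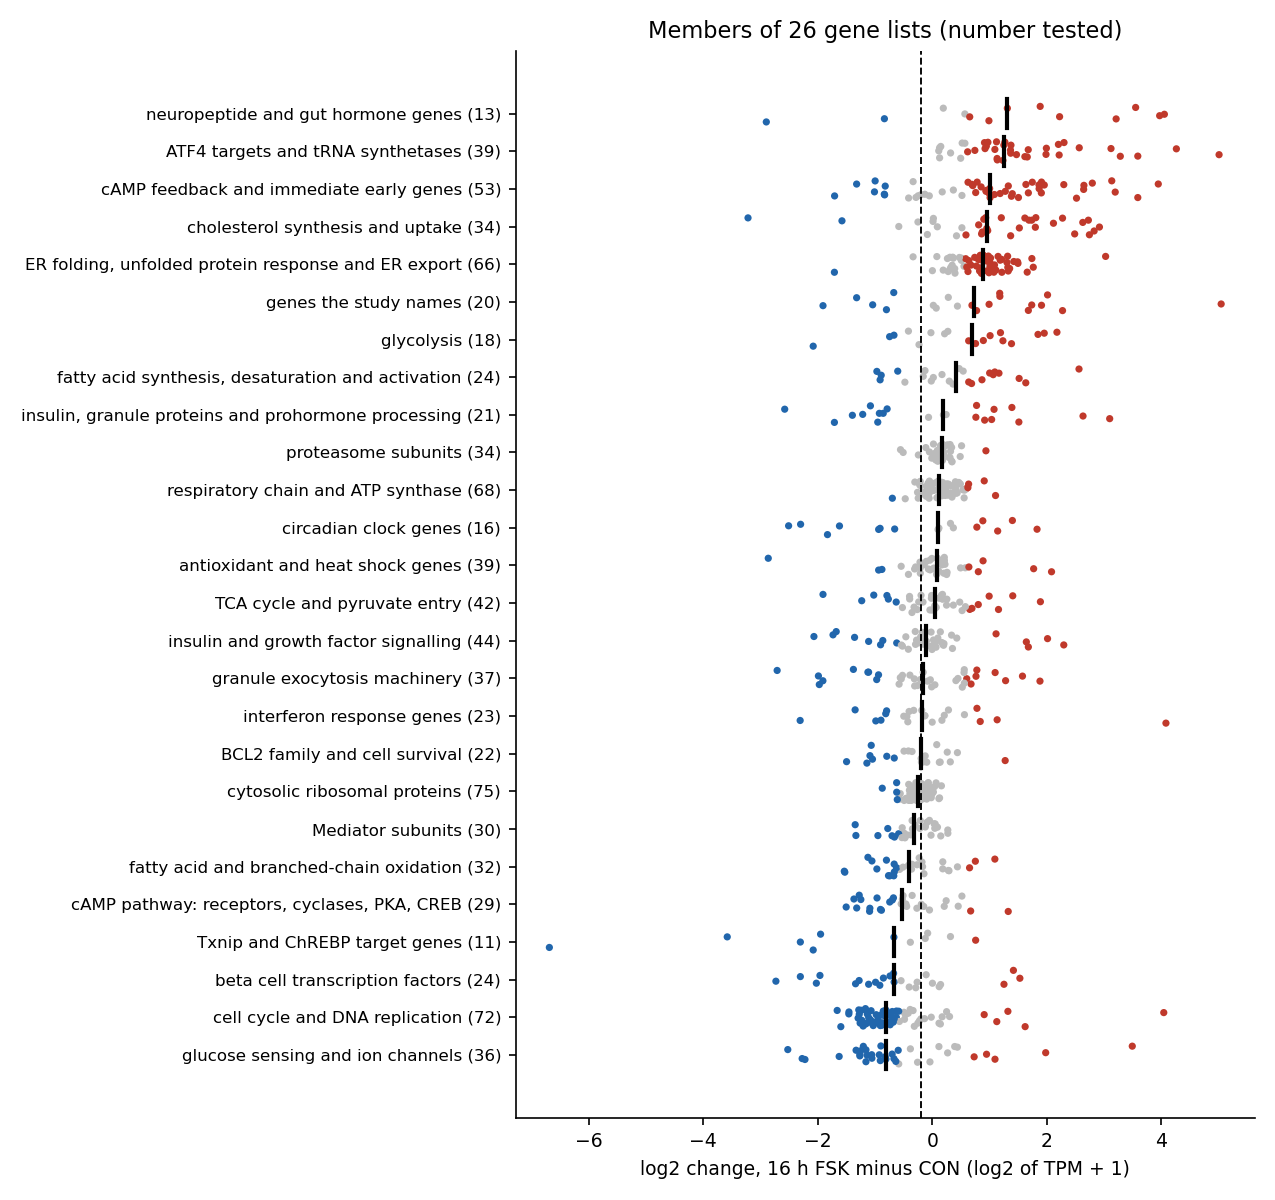
Log2 change (16 h FSK minus CON, log2 of TPM + 1, x axis) of each tested member of 26 gene lists, with members called higher in red, called lower in blue and not called in grey, and vertical bars at each list's median. The dashed line is the median of all genes tested (-0.20), and the list medians run from -0.81 to 1.31.

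Cholesterol synthesis genes rose together. Of 34 tested genes of cholesterol synthesis and uptake, 24 rose and 2 fell, with a median of 0.96. Msmo1 rose from 128 and 126 TPM to 958 and 984 TPM (log2 2.92 ± 0.05, limma adjusted p = 1.79e-24), Cyp51 from 111 and 110 TPM to 776 and 804 TPM, and Idi1 from 54.9 and 53.3 TPM to 356 and 381 TPM. These genes encode enzymes at separate steps of the pathway. The 2 falls were in genes that export cholesterol. Abca1 fell from 50.4 and 46.1 TPM to 4.13 and 4.45 TPM, and Abcg1 from 116 and 106 TPM to 35.7 and 37.1 TPM. Of 24 tested genes of fatty acid synthesis, desaturation and activation, 10 rose (41.7%, against 10.3% of all genes tested). A further 4 fell (16.7%, against 24.1%), 1 of them under all 3 scalings. Acss2, which makes acetyl-CoA from acetate, rose from 30.2 and 29.0 TPM to 178 and 182 TPM. The desaturase gene Scd2 rose from 698 and 674 TPM to 1923 and 2010 TPM. Acaca, the acetyl-CoA carboxylase gene, fell from 31.6 and 30.3 TPM to 15.01 and 15.7 TPM, and the fatty acid synthase gene Fasn was not called, at 108 and 107 TPM in CON and 107 and 112 TPM after FSK. Of 32 tested genes of fatty acid and branched-chain oxidation, 12 fell (37.5%, against 24.1% of all genes tested). Only 4 of these falls held under all 3 scalings, as did those of 11.2% of all genes tested. In this list 3 genes rose (9.38%, near the 10.3% of all genes tested). Cpt2, an acyltransferase gene of mitochondrial fatty acid import, fell from 101 and 97.8 TPM to 32.3 and 34.9 TPM. The subunit genes of the branched-chain ketoacid dehydrogenase separated, with Bckdha at 36.2 and 36.4 TPM in CON and 12.6 and 11.3 TPM after FSK, and Bckdhb at 20.9 and 19.5 TPM and then 43.9 and 44.7 TPM.

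Of 18 tested glycolytic genes, 10 rose and 3 fell, with a median of 0.70. Aldoa, an aldolase gene, rose from 851 and 881 TPM to 3926 and 3923 TPM (log2 2.18 ± 0.05), and Pfkp, a phosphofructokinase gene, from 45.4 and 48.7 TPM to 169 and 175 TPM. Aldoc rose from 2.81 and 2.76 TPM to 13.4 and 13.98 TPM. Pklr was among the falls, and the other 2 falls, 1 of them in Pfkfb2, were not called under either other scaling. Of 42 tested genes of the TCA cycle and pyruvate entry, 7 rose (16.7%, against 10.3% of all genes tested) and 6 fell (14.3%, against 24.1%), with a median of 0.04. Got1, an aspartate aminotransferase gene, rose from 72.2 and 70.2 TPM to 265 and 268 TPM, and Sucla2, a succinyl-CoA ligase subunit gene, from 62.1 and 62.4 TPM to 169 and 164 TPM. The kinase gene Pdk2, whose product switches off pyruvate dehydrogenase, fell from 56.3 and 52.3 TPM to 13.9 and 13.6 TPM, while Pdha1, a subunit gene of that enzyme, rose from 42.3 and 43.1 TPM to 93.2 and 100 TPM. Of 68 tested respiratory chain and ATP synthase genes, 5 rose (7.35%, against 10.3% of all genes tested) and 1 fell (1.47%, against 24.1%). This count was sensitive to scaling, with 27 called higher and 0 lower with ERCC scaling. Cytochrome c, Cycs, was the largest rise at 128 and 135 TPM in CON and 283 and 284 TPM after FSK.

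Cell cycle genes were mostly lower. Of 72 tested genes of the cell cycle and DNA replication, 49 fell and 5 rose, 24 of the falls under all 3 scalings, with a median of -0.81. Thymidine kinase, Tk1, fell from 203 and 197 TPM to 61.8 and 63.5 TPM (log2 -1.66 ± 0.03, limma adjusted p = 1.10e-23). The polymerase gene Pola1 fell from 56.4 and 57.5 TPM to 18.05 and 18.3 TPM, and the cyclin gene Ccne1 from 60.3 and 59.3 TPM to 20.7 and 21.7 TPM. The proliferation marker gene Mki67 fell from 72.6 and 72.8 TPM to 35.6 and 41.2 TPM and was not called with ERCC scaling. Against this direction, the D cyclin genes Ccnd1 and Ccnd3 rose. Ccnd1 went from 0.5 and 0.36 TPM to 23.3 and 21.8 TPM, and Ccnd3 from 75.2 and 70.7 TPM to 186 and 182 TPM. The cell cycle inhibitor gene Cdkn1a (p21) rose as well, from 25.1 and 23.01 TPM to 73.6 and 78.8 TPM. In the list of the BCL2 family and cell survival, 7 of 22 tested genes fell (31.8%, against 24.1% of all genes tested) and 1 rose. The median of -0.19 was close to the -0.20 of all genes. Bnip3, a mitophagy receptor gene, rose from 83.2 and 90.7 TPM to 208 and 215 TPM.

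Among 44 tested genes of insulin and growth factor signalling, 5 rose (11.4%, near the 10.3% of all genes tested) and 8 fell (18.2%, against 24.1%). The median was -0.10, so the list as a whole did not stand out. Irs2, the insulin receptor substrate gene through which cAMP is known to support beta cell survival, rose from 39.2 and 36.8 TPM to 123 and 125 TPM (log2 1.68 ± 0.05). The receptor gene Igf1r rose from 19.5 and 17.1 TPM to 92.6 and 94.8 TPM, and Kdr, a VEGF receptor gene, from 0.399 and 0.410 TPM to 4.52 and 4.83 TPM. Mapk3, which encodes the kinase ERK1, fell from 413 and 387 TPM to 95.1 and 94.4 TPM. Of 16 tested circadian clock genes, 5 rose (31.25%, against 10.3% of all genes tested) and 7 fell (43.75%, against 24.1%). Arntl (Bmal1) rose from 13.8 TPM in both CON libraries to 37.8 and 38.4 TPM, and Nfil3, a repressor gene, from 16.6 and 15.6 TPM to 60.8 and 58.7 TPM. The PAR bZIP factor genes fell, with Tef from 35.2 and 34.3 TPM to 5.52 and 5.06 TPM and Dbp from 92.3 and 99.4 TPM to 26.3 and 26.2 TPM. Per3 fell from 5.42 and 4.41 TPM to 0.210 and 0.186 TPM. Of 23 tested interferon response genes, 4 rose and 6 fell (26.1%, against 24.1% of all genes tested), 3 of the falls under all 3 scalings, and the median of -0.18 was close to that of all genes. Ifi27l2b was the largest rise, from 6.61 and 6.31 TPM to 124 and 127 TPM, and the chemokine gene Cxcl10 fell from 10.8 and 9.87 TPM to 1.22 and 1.36 TPM. Of 75 tested cytosolic ribosomal protein genes, 4 fell (5.33%, against 24.1% of all genes tested) and 0 rose. None of these falls was kept with ERCC scaling. Ribosomal protein genes have processed pseudogenes with which reads could be shared.

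Med14 itself was at 21.5 and 20.3 TPM in CON and 21.5 and 21.7 TPM after FSK and was not called (log2 0.04 ± 0.07, limma adjusted p = 0.545). Among the 30 tested Mediator subunits 7 fell (23.3%, near the 24.1% of all genes tested) and 0 rose, and 2 of the 7 falls held under all 3 scalings. Cdk19, a kinase module gene, fell from 32.5 and 31.7 TPM to 11.4 and 12.6 TPM, and Med23 from 73.8 and 67.8 TPM to 26.4 and 28.6 TPM, and these are those 2. A further list held 20 genes that the study singles out for different reasons, in part from these libraries, so their direction is not independent evidence. In that list 11 rose and 5 fell, 3 of the falls under all 3 scalings. Besides Plat, Kdr, Irs2 and Ins1, Hmgcs1 rose from 80.8 and 78.6 TPM to 387 and 393 TPM, the phosphodiesterase gene Pde10a from 14.6 and 12.9 TPM to 54.1 and 54.4 TPM, Pde4d from 11.3 and 10.2 TPM to 21.9 and 22.9 TPM, and the oxysterol-binding protein gene Osbpl6 from 6.09 and 5.79 TPM to 13.9 and 15.6 TPM. The falls were in Pdk2 and Grk3, given above, in Bcar1, an adaptor protein gene, from 56.1 and 50.4 TPM to 25.3 and 25.4 TPM, and in Cpt1a and Cyp4a8, which lost their calls under both other scalings. Pde2a, at 55.4 and 51.1 TPM in CON and 65.0 and 64.8 TPM after FSK, was not called in TPM but was with ERCC scaling.

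The 16 h libraries were next compared directly with WT cells after 8 h FSK to see which parts of the response still moved; the 16 h libraries are those of the comparison with CON. At 16 h, 1806 genes (17.6% of those tested) differed from their 8 h level, 1434 of them higher and 372 (3.62%) lower, and this balance changed to 881 and 608 with median-centred levels and 3796 and 115 with ERCC scaling. Of the 53 cAMP feedback and immediate early genes 20 were lower at 16 h than at 8 h and 4 higher (12 and 12 with ERCC scaling). Fosb, an AP-1 gene, was at 24.2 and 23.5 TPM at 8 h and 3.87 and 3.58 TPM at 16 h, still above the 0.306 and 0.283 TPM of CON. Among genes also called against CON with a mean of at least 10 TPM, Ppp1r17, a phosphatase regulator gene, had the largest difference. It went from 41.2 and 42.0 TPM at 8 h to 1.54 and 1.01 TPM at 16 h (log2 -4.23 ± 0.09, limma adjusted p = 9.91e-22), with 14.2 and 14.8 TPM in CON. Of the 13 neuropeptide genes 8 were lower at 16 h and 1 higher (4 and 2 with ERCC scaling). Hspa5 was at 4403 and 4794 TPM at 8 h and 1828 and 1885 TPM at 16 h. Other genes were higher at 16 h. Acss2 was at 29.2 and 26.8 TPM at 8 h, near its CON level, and at 178 and 182 TPM at 16 h (log2 2.64 ± 0.05, adjusted p = 2.17e-23). The sterol reductase gene Tm7sf2 was at 29.7 and 28.9 TPM at 8 h and 134 and 135 TPM at 16 h. The clock repressor gene Nr1d1 was at 1.07 and 1.41 TPM at 8 h and 10.8 and 11.8 TPM at 16 h, below the 19.1 and 17.6 TPM of CON; its call against CON was lost under both other scalings. Of the 39 ATF4 targets 12 were higher at 16 h than at 8 h and 0 lower (8 and 0 after median centring, 24 and 0 with ERCC scaling). Of the 18 glycolytic genes 10 were higher and 1 lower (7 and 1 after median centring, 14 and 0 with ERCC scaling). Txnip was as low at 8 h (2.32 and 1.99 TPM) as at 16 h, after 19.7 and 19.5 TPM at 1 h. Crem was at 290 and 276 TPM at 1 h, 171 and 172 TPM at 8 h and 86.4 and 80.4 TPM at 16 h.

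**Figure D5:**
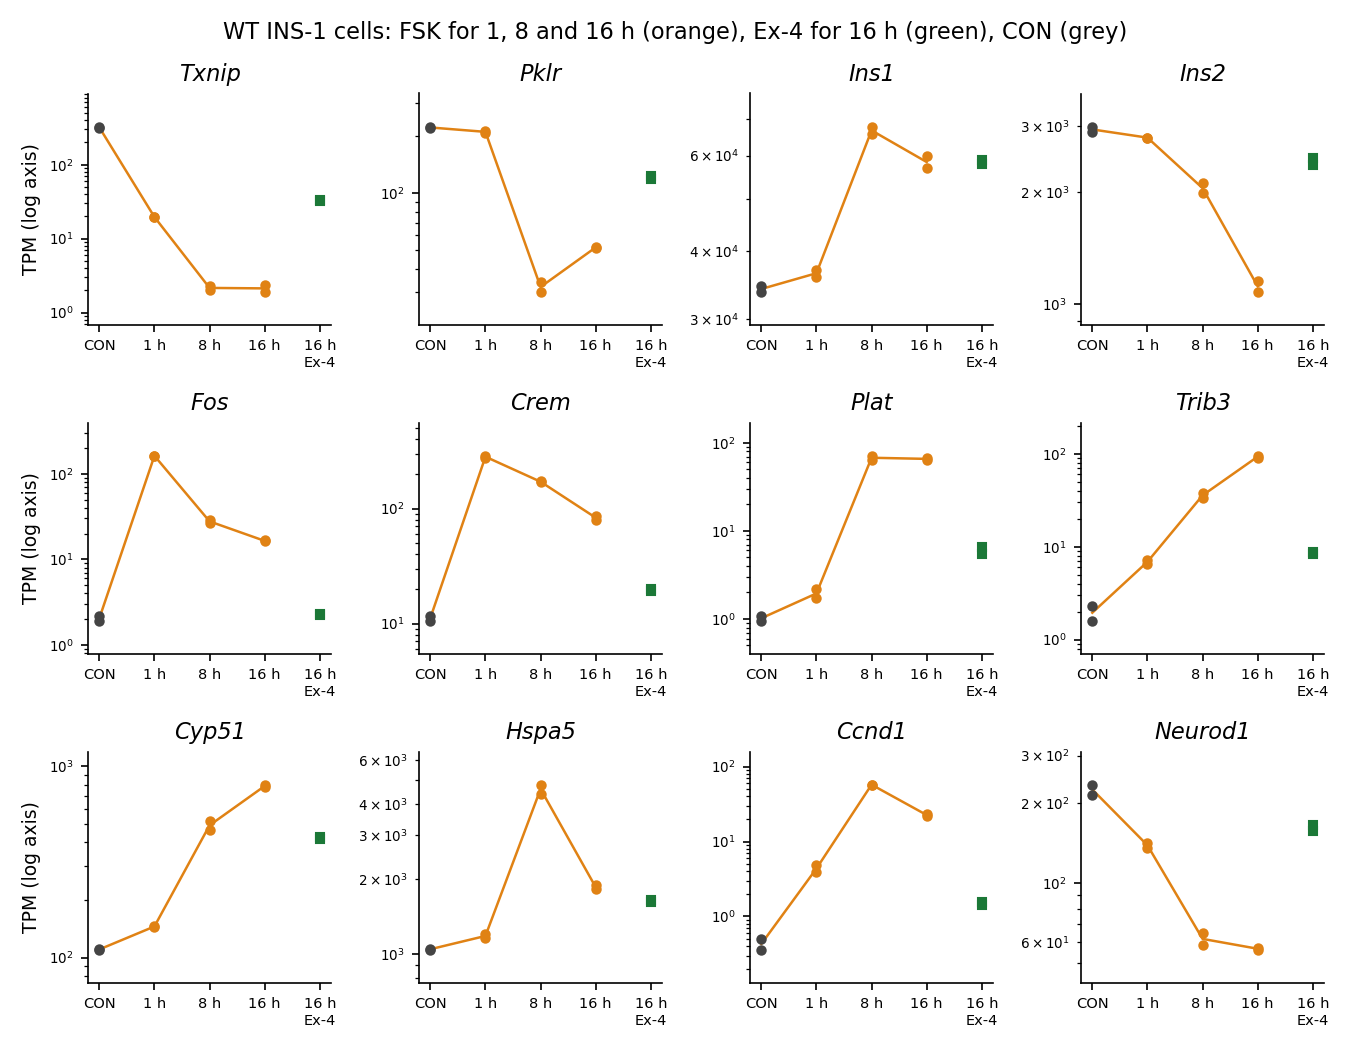
Level in TPM (log axis, own range in each panel) of 12 genes in WT cells: CON (grey), FSK for 1, 8 and 16 h (orange, line through the means) and Ex-4 for 16 h (green squares), 1 point per library, with times evenly spaced rather than to scale. Fos and Crem are highest at 1 h, Hspa5, Ccnd1 and Ins1 at 8 h, and Trib3 and Cyp51 at 16 h.

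FSK bypasses the GLP-1 receptor that Ex-4 acts on, and the 16 h FSK libraries were compared directly with WT cells after 16 h of 10 nM Ex-4. The doses are of different agents and are not matched, and the FSK libraries are again the same. Levels were higher with FSK in 749 genes (7.29% of those tested) and lower in 1176 (11.4%). Ins1 did not differ by the cutoff, at 58758 and 57777 TPM with Ex-4 (log2 difference 0.00, adjusted p = 0.975), whereas Ins2 was at 2463 and 2359 TPM with Ex-4 and 1154 and 1080 TPM with FSK (log2 -1.11, limma adjusted p = 7.36e-15). Differences were ranked among genes also called against CON with a mean of at least 10 TPM. In that ranking the largest upward were in Fst, at 0.835 and 0.891 TPM with Ex-4 and 33.9 and 35.0 TPM with FSK (log2 4.25 ± 0.09), Gprc5a, at 1.72 and 1.52 TPM and 41.9 and 42.2 TPM, Ifi27l2b, Trib3 and Plat. Plat was at 5.51 and 6.49 TPM with Ex-4. Downward the largest were Txnip, at 33.1 and 32.8 TPM with Ex-4 and 1.92 and 2.33 TPM with FSK (log2 -3.44 ± 0.08), Crp, Ffar3, Maob and Glul. Glul, the glutamine synthetase gene, was at 220 and 228 TPM with Ex-4, against 260 and 255 TPM in CON and 33.4 and 32.8 TPM with FSK. By group, 30 of the 53 cAMP feedback and immediate early genes were higher with FSK than with Ex-4 and 4 lower, as were 29 and 0 of the 39 ATF4 targets. In the other direction 11 of 24 beta cell transcription factors were lower with FSK and 2 higher, and 17 of 36 genes for glucose sensing and ion channels lower and 4 higher. For cholesterol synthesis and uptake 4 of 34 were higher and 2 lower.

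In Med14 S983A cells the 16 h FSK response was set against that of WT cells in an interaction term, which uses each genotype's own CON libraries. The response was more positive in Med14 S983A cells in 1091 genes (10.6% of those tested) and more negative in 658 (6.40%), but this balance turned with scaling and test: it was 802 and 893 with median-centred levels and 707 and 1059 with ERCC scaling. The WT libraries are those of the comparison above, so the values are not independent of it. The methods say that 2 separately made Med14 S983A lines were used, but the labels do not say which line each library came from, so a difference between lines was not tested. Among genes also called in WT 16 h FSK against CON with a mean of at least 10 TPM, Txnip had the largest positive difference. It fell from 55.9 and 52.9 TPM to 6.32 and 6.34 TPM in Med14 S983A cells, starting below its WT CON level (log2 difference 3.77 ± 0.12, limma adjusted p = 4.81e-18). Ephb3, an ephrin receptor gene, was at 1.67 and 2.18 TPM in mutant CON and 52.3 and 48.9 TPM after FSK, against 1.17 and 1.08 TPM and then 3.32 and 3.18 TPM in WT. Car2, a carbonic anhydrase gene, was at 20.1 and 19.5 TPM and then 59.9 and 63.0 TPM in the mutant, opposite to the fall in WT from 24.2 and 21.9 TPM to 10.3 and 11.1 TPM. Plat was at 0.058 and 0.015 TPM in mutant CON and 3.60 and 3.35 TPM after FSK (log2 difference -2.94 ± 0.13). Its mutant CON level was far below the 1 TPM added before log2, which shrinks the mutant rise. The Plat difference depends on that added 1 TPM and is not a comparison of TPM ratios. Mustn1, a musculoskeletal nuclear protein gene, was at 33.1 and 35.5 TPM in WT CON and 287 and 267 TPM after FSK, and at 8.05 and 8.75 TPM and then 7.04 and 7.19 TPM in the mutant (log2 difference -3.19 ± 0.09). Pgm5 and Pmp22 were below 1 TPM in all 4 mutant libraries, so their interaction values rest on the WT change. Slc2a9, a urate transporter gene, was already at 20.1 and 20.3 TPM in mutant CON against 1.48 and 1.39 TPM in WT CON, and at 24.5 and 26.9 TPM in the mutant and 17.1 and 17.9 TPM in WT after FSK. By group, 20 of the 34 genes of cholesterol synthesis and uptake had a more negative response in the mutant and 2 a more positive one (24 and 1 with ERCC scaling), and of the 24 beta cell transcription factors 12 were more negative and 1 more positive (13 and 1 with ERCC scaling). The interaction term compares changes from each genotype's own CON. The paper reports that basal levels of cholesterol synthesis genes were mostly raised in the mutant. Levels after FSK were not tested between the genotypes for these lists. Ins2 was at 32620 and 37516 TPM in mutant CON, far above WT CON, and at 6719 and 6724 TPM after FSK (log2 difference -0.98 ± 0.08).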

How the data were processed

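RNA-seq was done on 28 libraries of INS-1 cells. RNA was spiked with ERCC RNA, made into paired-end directional libraries, aligned by the authors with STAR 2.5.3a to rn6 and the ERCC sequences, and turned into the deposited TPM values per transcript over exons with HOMER 4.11.1; they counted ERCC RNAs with QoRTs and ran DESeq2 1.24.0 with ERCC size factors. The ERCC table holds the deposited counts. Whether gene counting used strand is not given in the sources used here. Of 19223 lines, 92 were ERCC RNAs, and 1676 transcripts were dropped so that each symbol kept the one with the highest mean TPM. The 10275 genes whose mean over the 28 libraries reached 1 TPM were fitted on log2(TPM + 1) with limma 3.58.1 in R 4.3.3, with 14 group means, 14 residual degrees of freedom and a variance trend, and called at an adjusted p below 0.05 and more than 1.5-fold. On this scale the change of low genes is understated. Fits were also run on simulated data with few changed genes, balanced in direction, so that run does not bear on the effect of scaling. The unit of the deposited values differs from the counts the study tested, so the main test was limma, and edgeR 4.0.16 and DESeq2 1.42.0 were run as alternatives on fragments recovered from TPM, length and ERCC counts, which came out whole for 100% of 124685 values (within 0.05 reads; 22.6% by chance).

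Members, lists and named genes were chosen with earlier results of these data known. Named genes were the 15 largest rises and 15 largest falls with a mean of at least 10 TPM. They also included up to 3 called members of each of 26 lists in each direction and 20 genes the study singles out. For each other contrast the 5 largest differences each way were taken. These were ranked only among genes called both there and in WT 16 h FSK against CON, with a mean of at least 10 TPM. Genes that crossed from under 1 to at least 5 TPM and genes that define a list were added. Others are marked in the text. Replicate numbers did not pair the samples: the correlation of deviations of WT 16 h FSK and WT CON replicates was -0.077. Promoters came from RefSeq (GRCr8) and matched 7997 of 10275 tested genes (77.8%), below the 80% needed, so a comparison of motif shares between called and other genes is void and is not given. Gene coordinates are those of the deposited table (rn6). Some genes are not reported here.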

Additional observations from a re-analysis of the deposited data

Results flagged for a closer look

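The response to 16 h FSK differed between Med14 S983A and WT cells by the interaction test in 1091 genes with a more positive and 658 with a more negative response in the mutant. This balance turned under other scalings and tests, with 802 and 893 after median centring and 707 and 1059 with ERCC scaling. Differences on the log2 scale (Med14 S983A response minus WT response) were ranked among genes also called in WT 16 h FSK against CON with a mean of at least 10 TPM. Those that stood out were positive for Txnip (3.77), Pgm5 (3.45), Ephb3 (3.14), Car2 (2.63) and Gpd1 (2.5). They were negative for Mustn1 (-3.19), Plat (-2.94), Slc2a9 (-2.60), Ndrg4 (-2.46) and Pmp22 (-2.46). Plat lay far below 1 TPM in mutant CON, so its difference depends on the 1 TPM added before log2. The call of Gpd1 in WT 16 h FSK against CON was lost under both other scalings.

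The response also differed between time points. WT cells after 16 h FSK had 1434 genes above and 372 below their 8 h level. The named differences on the log2 scale (16 h minus 8 h) were again ranked among genes also called against CON with a mean of at least 10 TPM. They were positive for Acss2 (2.64), Nr1d1 (2.45), Rab26 (2.32), Ifi27l2b (2.31) and Tm7sf2 (2.16). They were negative for Ppp1r17 (-4.23), Fosb (-2.39), Nrgn (-1.96), Cd83 (-1.85) and Crabp1 (-1.77). The calls of Cd83 and Nr1d1 against CON were lost under both other scalings. The groups held 2 libraries each, too few to look for an outlying library within a group.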

How the results depend on the processing

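In WT 16 h FSK against CON the number of genes called higher was 1062 and the number called lower 2478. Centring each library on its median gave 1723 and 1481, ERCC scaling 2272 and 1169, and DESeq2 with ERCC size factors 2446 and 1323. Genes called higher numbered 1624 in edgeR and 1728 in DESeq2. Without the fold minimum 8271 genes were called, 2634 higher and 5637 lower. Leaving out each library in turn gave 1033 to 1090 higher and 2371 to 2604 lower in TPM, and, in combinations chosen after seeing the data, 1707, 1711, 1740 and 1743 higher and 1485, 1489, 1502 and 1525 lower after centring and 1970, 2073, 2505 and 2619 higher and 1018, 1065, 1291 and 1386 lower on the ERCC scale. Of 896 genes in the lists, 236 were called higher and 198 lower. With DESeq2 and ERCC size factors these were 358 and 115, without the fold minimum 391 and 379, with ERCC scaling 107 lower, and with ERCC scaling and each library left out in turn 371 and 384 higher (without FSK replicate 1 and CON replicate 1) and 93, 100, 117 and 124 lower.

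Against 8 h FSK, 881 genes were higher and 608 lower after centring, 3796 and 115 (3911 in all) with ERCC scaling, 4348 and 151 (4499) in DESeq2 with ERCC size factors, and 4750 and 2220 (6970) without the fold minimum; edgeR and DESeq2 called 680 and 675 lower. Against Ex-4, 3164 and 3859 (7023) were called without the fold minimum. For the difference between genotypes (1091 higher and 658 lower), the balance turned to 802 and 893 with median centring, 707 and 1059 with ERCC scaling, 927 and 1036 in edgeR, 940 and 990 in DESeq2, and 757 and 1162 in DESeq2 with ERCC size factors; it was 3688 and 2266 (5954) without the fold minimum. Apart from the choices of scaling and fold, the cause of these shifts was not tested.

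Of 224 named genes, 218 were called and 195 kept their side of the threshold under every alternative run. No named gene reversed. ERCC scaling ended 20 calls and median centring 11. Named genes were picked from these same data, many for large changes, so their stability follows in part from the choice. Over all genes tested, 1155 of the 2478 called lower were lower under all 3 scalings. With the replicate number as a replicate block, 1062 genes were higher and 2482 lower, and no named gene changed its call; the numbers do not pair the samples. With 2 libraries a group, leaving one out assumes that the lone library varies like the other groups. Genes near 1 TPM are limited by depth, and TPM and ERCC scaling measure shares of RNA, not RNA per cell.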
